A study of Mus musculus with 4 samples.

Results

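Smgc, Muc19, Dcpp1, Dcpp2 and Dcpp3 encode secretory products that mark the mouse sublingual gland (SLG), and their transcripts were examined in salivary glands (SGs) of Myd88-/- and Myd88+/+ mice. Probes were taken when the gene name in the array files was exactly one of these 5 names, which gave 5 of 34844 gene names and 6 of 55681 probes on the array: 1 each for Smgc, Dcpp1, Dcpp2 and Dcpp3, and 2 for Muc19. All 6 probes were well above background on all 4 arrays by the scanner software's own flag, so all 6 were among the 31016 probes tested. None was saturated or marked as an outlier, and each is a single spot.

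The arrays were 1-colour Agilent whole mouse genome arrays hybridized with Cy3-labelled cRNA. There were 2 arrays from Myd88-null mice and 2 from wild type mice, all female C57/BL6 at 10 weeks, and MyD88 is the adaptor through which most Toll-like receptors and interleukin-1 family receptors signal. No treatment is named for either genotype, and the study states that both genotypes came from heterozygous parents. The labels name the tissue as SMG (submandibular gland) plus SLG, freed of lymph nodes and fat, while the study's text names whole SMGs. The legends of the study give another number of samples for each genotype than the labels do. Nothing states whether each array is a single mouse or a pool, so the p-values measure the spread between these arrays, which may be technical. All 4 arrays lie on 1 slide and were read in 1 scan.

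In the mouse, SMGC (submandibular gland protein C) and the gel-forming mucin Muc19 are made from alternative transcripts of 1 locus. SMGC is known as a secretory product of the developing SMG and of the SLG, and Muc19 as the large gel-forming mucin of the SLG mucous cells. The Dcpp genes encode small secreted proteins named for the demilune cells of the SLG, which are serous cells capping the mucous end pieces, and for the parotid gland. In RNA from whole glands, fewer cells of a type and less RNA per cell cannot be told apart, and neither can a different share of SLG and SMG tissue in a sample.

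The probes are shown because they decide which transcript a value belongs to. By the array files (NCBI37/mm9, all on the plus strand), the Smgc probe lies on chromosome 15 at 91691437 to 91691496 and starts at base 2547 of its transcript. One Muc19 probe lies 45.3 kb further along, at 91736775 to 91736834 (base 3913 of the transcript, here the 5′ probe), and the other 73.4 kb further along, at 91764926 to 91764985 (base 22734, here the 3′ probe). The Dcpp1, Dcpp2 and Dcpp3 probes lie on chromosome 17 at 24019432 to 24019491, 24037474 to 24037533 and 24056202 to 24056261, spaced by 18 and 18.7 kb, and start at bases 228, 330 and 403 of their transcripts. Exon and UTR annotation of this build was not used here. The Dcpp probes and the Muc19 5′ probe are given whole, and the others by their first 30 bases:
Dcpp1 probe: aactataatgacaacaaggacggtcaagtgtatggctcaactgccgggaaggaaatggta
Dcpp2 probe: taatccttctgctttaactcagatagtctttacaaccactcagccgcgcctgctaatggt
Dcpp3 probe: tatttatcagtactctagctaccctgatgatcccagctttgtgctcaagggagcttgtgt
Muc19 5′ probe: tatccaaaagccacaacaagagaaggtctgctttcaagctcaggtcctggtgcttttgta
Muc19 3′ probe, first 30 bases: gcatggttatcattgttttgttattgatgc
Smgc probe, first 30 bases: tgcagatacattttggagatgcatagccat
No probe on the array shared 45 or more of the 60 bases of any of these on either strand, in an ungapped comparison with every probe that held the same run of 12 bases, and the most shared on the same strand was 26 to 29. The Dcpp probes are thus different 60-mers from different stretches of their transcripts. Transcript sequences were not used here, so whether a Dcpp probe also reads its paralogs was not tested.

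The promoters are shown as background on the genes, and whether they bear on the differences between the genotypes was not tested. RefSeq promoter sequences (GRCm38.p6, a later build than that of the probes) matched 4 of the 5 gene names, and Muc19 is listed there as a synonym of the Smgc gene. Each line below gives 140 bases, from 120 before the transcription start to 20 from it on, with the letters TATAA in capitals:
Smgc promoter, chr15:91838208-91838347, plus strand: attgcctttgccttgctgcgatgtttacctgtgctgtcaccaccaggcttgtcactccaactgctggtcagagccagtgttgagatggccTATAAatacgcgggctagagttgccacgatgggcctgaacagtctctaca
Dcpp1 promoter, chr17:23880756-23880895, plus strand: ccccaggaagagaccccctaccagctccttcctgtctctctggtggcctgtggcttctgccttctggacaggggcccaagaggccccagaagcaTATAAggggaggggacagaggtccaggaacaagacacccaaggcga
Dcpp2 promoter, chr17:23898602-23898741, plus strand: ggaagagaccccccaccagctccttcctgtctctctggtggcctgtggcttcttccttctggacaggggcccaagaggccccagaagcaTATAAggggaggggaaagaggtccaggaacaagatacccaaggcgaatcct
Dcpp3 promoter, chr17:23917338-23917477, plus strand: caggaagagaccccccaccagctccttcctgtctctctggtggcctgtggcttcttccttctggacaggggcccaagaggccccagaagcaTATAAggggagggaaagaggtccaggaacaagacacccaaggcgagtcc
Each of the 4 windows of 300 bases held TATAA 1 time on the plus strand, beginning 26 to 31 bases before the start, and not on the minus strand. The letters TATAA were found on either strand in 24.9% of 32851 promoters of the same length. In 4.49% they lay wholly within the stretch from 50 to 11 bases before the start on the plus strand. Aligned over 295 to 298 bases, the Dcpp promoters were 96.9% identical between Dcpp1 and Dcpp2, 97.6% between Dcpp1 and Dcpp3, and 97.7% between Dcpp2 and Dcpp3.

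Smgc had the largest difference among the 6 probes and was higher in the Myd88-/- glands. Levels are log2 processed signals relative to the 75th percentile of the array, so that 1 unit is 2-fold, and differences are Myd88-/- minus Myd88+/+. The Smgc level was 10.08 and 9.95 on the Myd88-/- arrays and 8.33 and 8.56 on the Myd88+/+ arrays. Both Myd88-/- arrays lay above both Myd88+/+ arrays, and the gap between the genotypes exceeded the spread within either. Averaged by genotype, Smgc stood at 10.02 ± 0.10 and 8.44 ± 0.16 (SD, n = 2 each). This difference of 1.57 log2 units (standard error 0.14, 95% interval 1.17 to 1.98) is 2.98-fold. In limma's test this gave an unadjusted p of 0.000537 and an adjusted p of 0.262 over all probes, which missed the threshold of 0.05. The adjusted p fell to 0.0231 with normexp background correction, where the log2 difference was 1.497, and to 0.0129 with trended and robust moderation. It lay between 0.162 and 0.954 in the other settings run. Before any scaling, the Smgc spot read 278021 and 234239 on the Myd88-/- arrays against 103170 and 101312 on the Myd88+/+ arrays, between 12.8% and 34.9% of the saturating signal. The difference without scaling was 1.32, so Smgc kept its direction whether or not the arrays were scaled.

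**Figure D1:**
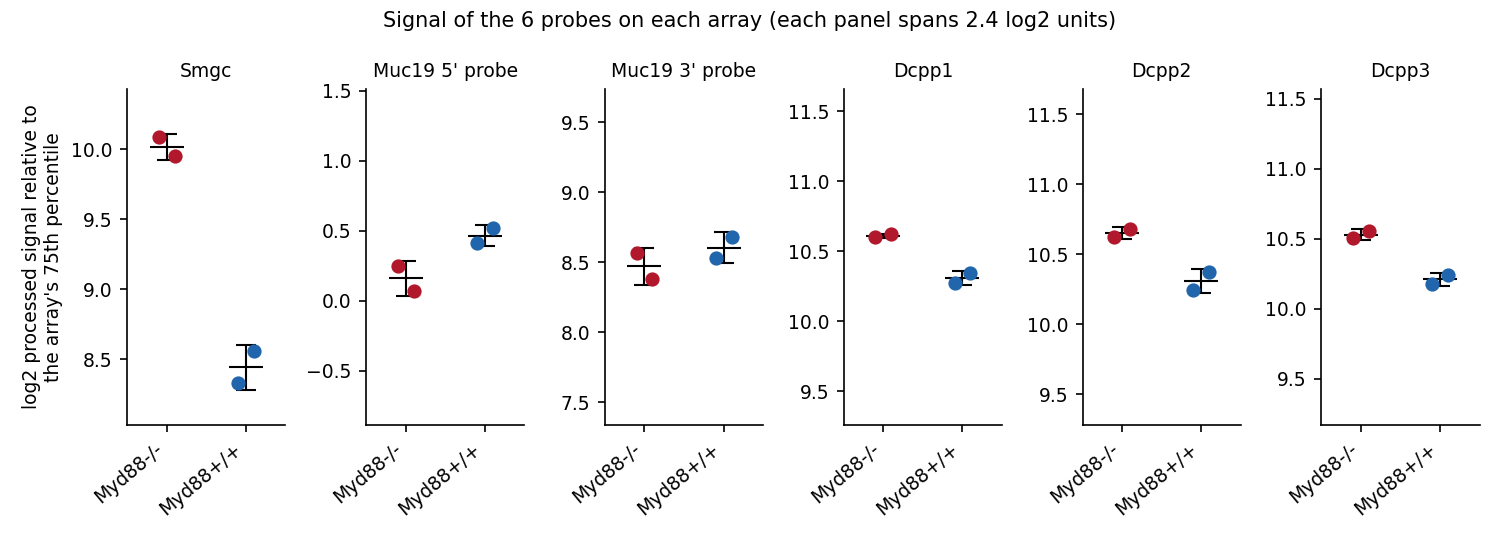
Log2 processed signal of each of the 6 probes, scaled by the 75th percentile, for the 2 Myd88-/- arrays (red) and the 2 Myd88+/+ arrays (blue), with the mean and SD of each genotype in black. Each panel spans the same number of log2 units at its own height, so that gaps can be compared across panels: the gap was 1.57 for Smgc and 0.30 to 0.34 for the Dcpp probes, and the Muc19 3′ values overlapped.

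Neither Muc19 probe shared the higher Smgc signal. At the 3′ probe the level was 8.56 and 8.38 on the Myd88-/- arrays and 8.53 and 8.68 on the Myd88+/+ arrays, and the genotypes overlapped. The log2 difference was -0.13 (standard error 0.14, 95% interval -0.52 to 0.25, adjusted p = 0.694 from limma). At the 5′ probe the level was 0.25 and 0.07 on the Myd88-/- arrays and 0.41 and 0.52 on the Myd88+/+ arrays. Both Myd88-/- arrays lay below both Myd88+/+ arrays there, by a log2 difference of -0.31 (standard error 0.13, 95% interval -0.67 to 0.06, adjusted p = 0.398 from limma). The 5′ spot was dim, at 249 to 427 intensity units, while the 3′ spot read 78807 to 118350. Levels of different probes are not comparable, so this does not order the stretches of the transcript. The difference between the 5′ and the 3′ probe, taken within each array, was 0.17 log2 units lower in the Myd88-/- glands. Without scaling both probes read lower in the Myd88-/- glands, by -0.56 at the 5′ and -0.39 at the 3′ probe, and the 3′ difference was negative in every setting run, from -0.39 to -0.04.

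The 3 Dcpp probes gave almost the same values as one another. Dcpp1 read 10.60 and 10.62 on the Myd88-/- arrays and 10.27 and 10.34 on the Myd88+/+ arrays. Dcpp2 read 10.62 and 10.68 against 10.25 and 10.37, and Dcpp3 read 10.50 and 10.56 against 10.18 and 10.24. For each gene both Myd88-/- arrays lay above both Myd88+/+ arrays on this scale. The log2 difference was 0.30 for Dcpp1 (standard error 0.11, 95% interval 3.8e-05 to 0.61, 1.23-fold), with an unadjusted p of 0.04998 in limma. For Dcpp2 it was 0.34 (standard error 0.11, 95% interval 0.02 to 0.67, 1.27-fold, unadjusted p = 0.0429), and for Dcpp3 0.32 (standard error 0.11, 95% interval 0.02 to 0.63, 1.25-fold, unadjusted p = 0.0437). The adjusted p in limma was 0.350, 0.337 and 0.338. On any 1 array the 3 levels spanned 0.09 to 0.13 log2 units.

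Unlike that of Smgc, the Dcpp difference depended on how the arrays were scaled. The unscaled Dcpp1 spot read 397613 and 373134 on the Myd88-/- arrays and 396173 and 349277 on the Myd88+/+ arrays, and the genotypes overlapped. Dcpp2 read 404252 and 388869 against 389605 and 355797, and Dcpp3 read 372260 and 356913 against 371263 and 325814. Dcpp2 overlapped between the genotypes as well, and so did Dcpp3. The log2 differences without scaling were 0.05, 0.09 and 0.07. The 75th percentile itself was 256 and 237 on the Myd88-/- arrays and 321 and 269 on the Myd88+/+ arrays, a log2 difference of -0.253. The scaling subtracts it, and so raises the difference of every probe by 0.253. Under quantile normalization, which gives all arrays the same distribution of signals, the differences were 0.00, -0.02 and 0.03, and Dcpp2 changed its sign. Very bright spots of similar rank on every array take nearly the same value under it, so it cannot decide whether these differed. With normexp and with centring on the array median the differences were 0.25, 0.29 and 0.27. With the 75th percentile of probes detected on all arrays they were 0.25, 0.29 and 0.26. These spots lay at 44.8% to 56.6% of the saturating signal.

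**Figure D2:**
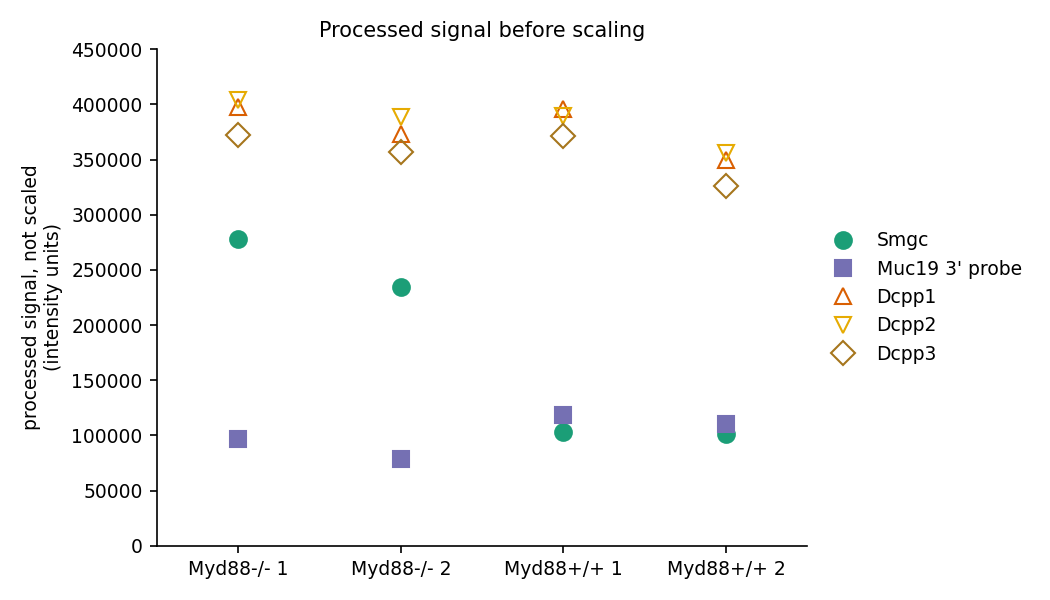
Processed signal of the Smgc, Muc19 3′ and Dcpp spots on each array before scaling, in intensity units on a linear axis from 0. Heights of different probes are not comparable, and each symbol should be followed across the 4 arrays: Smgc ran from 101312 to 278021 with the Myd88-/- arrays on top, while each Dcpp probe overlapped between the genotypes.

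**Figure D3:**
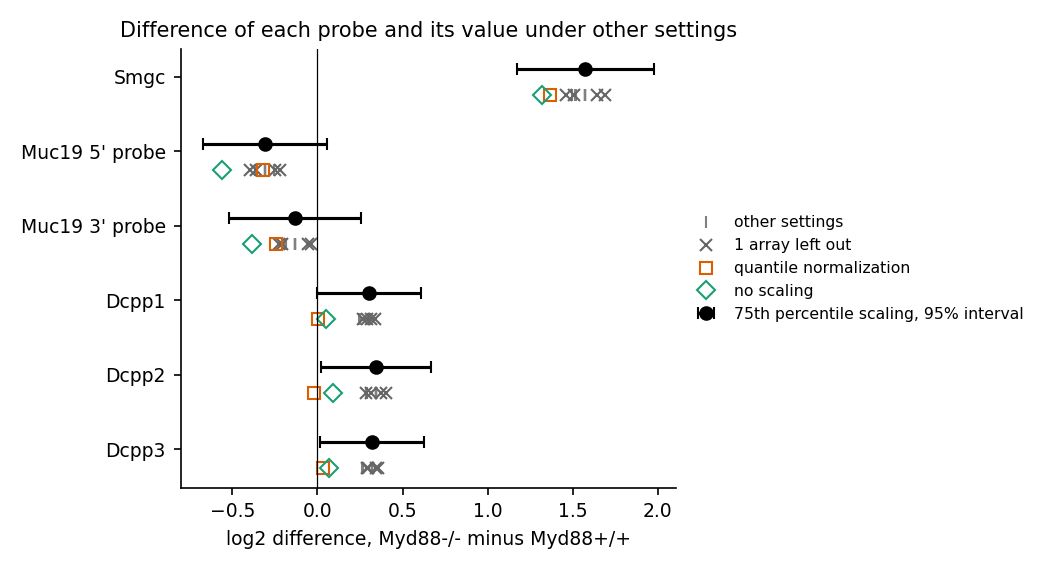
Log2 difference of each probe (Myd88-/- minus Myd88+/+) with its 95% interval from limma (black), and below it the value under each other setting, with quantile normalization, no scaling and the fits without 1 array marked apart. Smgc stayed between 1.32 and 1.69, and the Dcpp probes moved to between -0.02 and 0.09 under quantile normalization or no scaling.

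Set against all probes, the counts among the 6 were as follows. At an adjusted p under 0.05, limma called 0 of the 6 probes, and 0 of 31016 over the array (0.00%). At an unadjusted p under 0.05, 4 of the 6 passed (Smgc, Dcpp1, Dcpp2 and Dcpp3), all of them higher in the Myd88-/- glands, where 14.3% of all probes passed and 8.36% passed in that direction. The arrays of the genotypes did not overlap for 5 of the 6 probes, 4 higher and 1 lower (Muc19 5′), where 49.5% of all probes did not overlap, 31.6% higher and 17.8% lower. Whether the 3 Dcpp probes count as separate observations was not tested. The Smgc difference exceeded 1 log2 unit, as did 1.34% of all probes in that direction. The median difference over all probes was 0.06, and the 10th and 90th percentiles were -0.42 and 0.45, a range that holds the values of the Muc19 and Dcpp probes and not that of Smgc.

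Because scaling cancels in the ratio of 2 probes on the same array, all 15 pairs of the 6 probes were also compared. The log2 ratio of Smgc to the Muc19 3′ probe was 1.52 and 1.57 on the Myd88-/- arrays and -0.20 and -0.12 on the Myd88+/+ arrays. It was thus shifted by 1.71 log2 units, or 3.26-fold, between the genotypes, and the arrays lay far apart against a spread of 0.04 and 0.05 (SD, n = 2 each). Against the Muc19 5′ probe the shift was 1.88, or 3.68-fold. The ratio of Smgc to Dcpp1, Dcpp2 and Dcpp3 shifted by 1.27, 1.23 and 1.25. The ratio of the Muc19 3′ probe to the Dcpp probes shifted by -0.44, -0.48 and -0.45. The ratios among the Dcpp probes shifted by -0.04 to 0.02, and their arrays overlapped. With 2 arrays for each genotype, 0.3333 is the smallest p that an exact permutation test (two-sided) can reach, so no ratio could pass the threshold, and the pairs share their probes.

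Other secretory genes of the glands were read from lists, each gene by its brightest tested probe. Of 7 tested genes of a mucous secretory cell list of 12, all 7 were higher in the Myd88-/- glands, with a median log2 difference of 0.34, where the median over 22312 genes was 0.06. An unadjusted p under 0.05 in limma was reached by 3 of the 7, all higher, where 15.3% of genes reached it, 8.89% higher and 6.44% lower. That median was 0.09 without scaling and 0.08 without Myd88+/+ array 2. The arrays of the genotypes did not overlap for 3 of the 7, where 31.6% of all probes lay apart in that direction. Agr2 at 0.12 and Fcgbp at 0.02 were below the 0.253 that the scaling added to every difference. Among the 7 were Spdef, a transcription factor of mucous cells, at 6.81 and 6.60 against 6.29 and 6.25, and Creb3l1, a regulator of secretory capacity, at 5.57 and 5.62 against 5.17 and 5.33. Their log2 differences were 0.44 and 0.34, close to those of the Dcpp probes. Ern2, an endoplasmic reticulum stress sensor of mucous epithelia, differed by 0.46 and the mucin gene Muc5ac by 0.54 (unadjusted p = 0.215), both at a low level. Tff1, Tff2, Tff3, Muc2 and Zg16 were too dim to be tested.

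Of 18 tested genes for the O-glycosylation of mucins (19 listed), 11 were higher and 7 lower, with a median of 0.04. In limma 3 genes, all lower, had an unadjusted p under 0.05, where 6.44% of all genes were lower at that p. The median of this list was -0.21 without scaling and 0.14 without Myd88-/- array 2. Gcnt1, which branches core O-glycans, was lower by a log2 difference of -2.67 at its brightest probe and -1.87 at its other probe. Galnt6, which starts O-glycans, differed by -0.84 at its brightest probe and by 0.50 at its other probe, so its probes disagreed in sign. Galnt1 differed by -0.46, and Gcnt3 by 0.93 (unadjusted p = 0.073). The serous acinar and demilune list held 10 tested genes, 5 higher and 5 lower, with a median of -0.08. In each direction 2 genes had an unadjusted p under 0.05 in limma, where 8.89% of all genes passed higher and 6.44% lower. The median turned to 0.10 without Myd88-/- array 2 and was -0.23 without Myd88-/- array 1. Its lowest were the proline-rich protein genes Prh1 and Prb1, at -2.41 and -2.29, while Dmbt1 differed by 0.62 and the amylase gene Amy1 by -0.57, neither passing an unadjusted p of 0.05. Car6, Pip and Lpo differed by 0.39, 0.38 and 0.44, near the Dcpp values. On the Myd88-/- arrays Prb1 read 7.26 and 5.34 and Prh1 read 4.73 and 2.75, so both varied widely within that genotype. With 5 genes higher and 5 lower, the other demilune and serous genes did not share 1 direction with the Dcpp probes. Some of these signs are weak. Amy1 (9.46 and 8.39 against 9.46 and 9.54) and Bpifa2 (10.39 and 9.74 against 10.23 and 10.28) lay below both Myd88+/+ arrays only on Myd88-/- array 2. Bhlha15 counted as higher at 0.03.

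In the submandibular acinar list, 3 of 5 tested genes were higher and 2 lower. Muc10, the SMG mucin (named Prol1 on the array), differed by 0.38 and the sodium, potassium and chloride cotransporter gene Slc12a2 by 0.42, while Smr3a differed by -1.86 at its brightest probe and -0.44 at its other probe. On the Myd88-/- arrays the brightest Smr3a probe read 8.31 and 6.68, so it varied widely within that genotype. At the other Smr3a probe the genotypes overlapped. Transcripts linked with both glands named in the labels were thus read on every array. These were Muc10 with the kallikreins of the granular convoluted tubule for the SMG, and Muc19 for the SLG. Whether parotid tissue was part of the samples was not tested. The kallikrein and growth factor list of that tubule had 17 tested genes, 5 higher and 12 lower, with a median of -0.14 and 0 genes at an unadjusted p under 0.05. Its median was 0.04 without Myd88+/+ array 2 and -0.33 without Myd88+/+ array 1, so the sign rested on 1 array. In the duct list, 5 of 8 genes were higher, with a median of 0.40 and Krt8 at 0.68, Ascl3 at 0.57 and Krt18 at 0.54. These 3 had an unadjusted p under 0.05 in limma, where 8.89% of all genes were higher at that p. The 3 lower genes were Krt19 at -0.28, with no overlap between the genotypes, Foxi1 at -0.17 and Kit at -0.01. The median of the duct list was 0.14 without scaling and 0.25 without Myd88+/+ array 1. The myoepithelial list had 3 of 7 genes higher and a median of -0.03, which was 0.13 without Myd88+/+ array 2 and -0.24 without Myd88+/+ array 1. After adjustment, limma called 0 genes of any list.

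**Figure D4:**
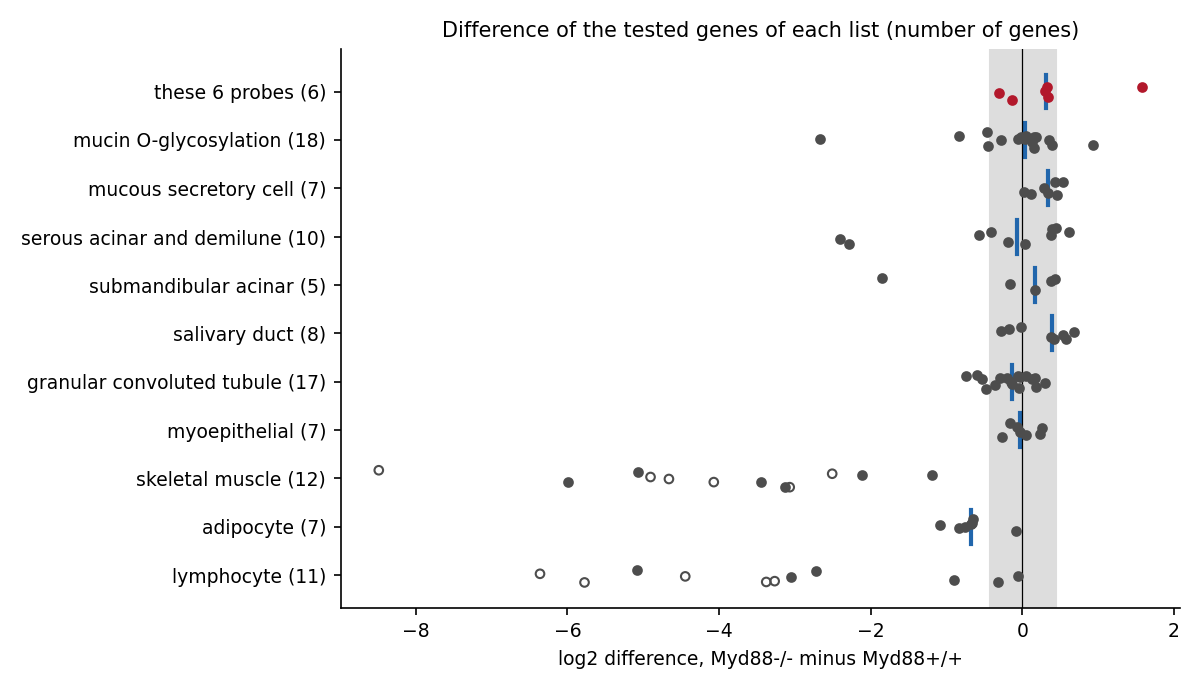
Log2 difference (Myd88-/- minus Myd88+/+) of the 6 probes (red) and of the tested genes of each list (grey), with the number tested in parentheses. Blue lines mark the median where every gene was well above background on all 4 arrays, open points are genes that were not and whose values are measured differences only, and the grey band spans the 10th to the 90th percentile of all genes (-0.42 to 0.45). Smgc lay above the band and the Dcpp probes and Muc19 within it. Every skeletal muscle gene and most lymphocyte genes lay below it, the open ones in a direction fixed by the filter. Of the filled lymphocyte genes, Cd22 at -0.33 and Cd3e at -0.06 lay within the band.

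Markers of other tissues moved with the genotype too. Of 12 tested skeletal muscle genes, 6 were well above background on all 4 arrays, and these 6 were lower in the Myd88-/- glands with no overlap between the genotypes, as were 18.7% of all genes. The other 6 could be tested only through the Myd88+/+ arrays, which fixes their direction. The log2 of the summed signal of the 12 was 1.84 and 1.86 on the Myd88-/- arrays and 4.57 and 7.03 on the Myd88+/+ arrays. Of 11 tested lymphocyte genes, 6 were well above background on all 4 arrays, 5 of them lower without overlap. The other 5 could likewise be tested only through the Myd88+/+ arrays, which fixes their direction. The 11 had a summed level of 2.70 and 2.91 against 4.90 and 4.16. All 7 tested adipocyte genes were lower, 6 without overlap, with a summed level of 7.39 and 8.04 against 8.49 and 8.47. The part of these tissues in the values of Smgc, Muc19 and the Dcpp genes was not tested. Leaving out Myd88+/+ array 1 or array 2 gave a Smgc difference of 1.46 or 1.69.

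The neighbouring probes were read by their positions in the array files, up to 100 kb from the probes described here. Around Smgc and Muc19 there were 3 others. Lrrk2, a kinase gene whose 2 probes lie before the Smgc probe, was also higher, by 0.81 (unadjusted p = 0.0312 from limma, arrays without overlap) and by 0.66 (unadjusted p = 0.213, arrays overlapping). A probe without a gene name on the opposite strand, beyond the Muc19 3′ probe, differed by -0.30. Along this stretch, the differences were thus positive at Lrrk2 and Smgc and negative at both Muc19 probes.

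Around the Dcpp genes there were 20 other probes, of which 15 were tested. Their differences ran from -0.94 to 1.05 with a median of 0.05. The arrays of the genotypes did not overlap for 4 of the 15, where 49.5% of all probes did not overlap. An unadjusted p under 0.05 in limma was reached by 1, the unnamed transcript TC1695806 at 0.50, where 14.3% of all probes reached it. Between the Dcpp1 and Dcpp2 probes, a probe on the opposite strand (NAP113406-1) read 7.64 and 7.66 on the Myd88-/- arrays and 7.64 and 7.68 on the Myd88+/+ arrays, a difference of -0.01. The probes for Sbp, a spermine-binding protein gene, and for Sbpl, named as like it, were well above background on none of the arrays and on 3 of them.

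**Figure D5:**
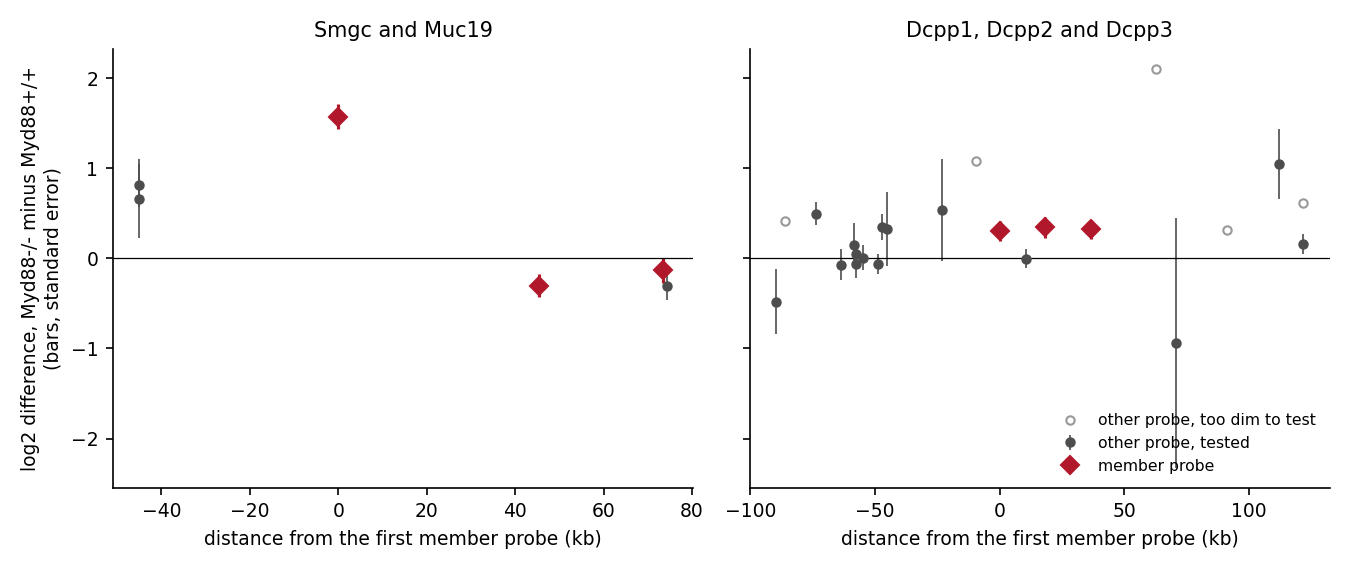
Log2 difference (Myd88-/- minus Myd88+/+) of the member probes (red diamonds) and of other probes near them against the distance in kb from the Smgc probe (left) or the Dcpp1 probe (right), with standard errors from limma. Open circles are probes too dim to be tested, whose values are measured differences without an error. The Dcpp probes lay at 0.30 to 0.34 and the tested neighbours on both sides at a median of 0.05, while Smgc at 1.57 lay between Lrrk2 and the lower Muc19 probes.

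The genes most like each probe were looked up among 20489 genes well above background on all 4 arrays, by the root mean square difference of values centred on their mean over the 4 arrays. The nearest to Smgc were an unnamed probe (A_55_P1959017), the clock gene Arntl and the transcript ENSMUST00000069431, at 0.119, 0.120 and 0.128 log2 units, and 0 genes lay within 0.1. For the other probes 1014 to 3198 genes lay within 0.1, since small differences over 4 arrays are shared by many genes. Named examples were the histone gene H3f3b for Dcpp3 (0.00657), the ribosomal protein gene Rps19 for Dcpp2 (0.0074), Taf12 for the Muc19 3′ probe (0.00914) and Iqcc for the Muc19 5′ probe (0.0115). The 3 genes nearest to Dcpp1 were unnamed probes.

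The values that bear on the arrays as a whole are few. Between 52.2% and 74.1% of probes were well above background, with more difference within a genotype than between the genotypes. The Myd88 probe itself was not lower on the Myd88-/- arrays (1.51 and 1.41 against 1.15 and 1.07), and since the deleted stretch is not given in the sources used here, it does not check the labels. Hprt differed by 0.06. Of the sex list, the X-linked Xist was well above background on all 4 arrays and differed by -0.16, and the 4 Y-linked genes were too dim to be tested. With so few arrays, their number sets the precision of every value given.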

How the data were processed

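RNA of SGs from 2 Myd88-/- and 2 Myd88+/+ samples, grouped by the labels, was measured on 1-colour arrays. The authors deposited scanner output of Feature Extraction 10.7.3.1, in which the processed signal is an intensity corrected for background, with no normalization between arrays. Deposited flags mark outliers, saturation and spots well above background. A processed table of the series was not used, because its 4 columns match no single sample.

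From these, log2 processed signals were scaled on the 75th percentile of non-control spots of the array, outlier spots were left out, and spots of a probe were averaged. Probes that were well above background on both arrays of a genotype were tested with limma 3.58.1 in R 4.3.3 (lmFit, eBayes), adjusted by Benjamini-Hochberg over all 31016 probes, threshold 0.05. Ratios used an exact permutation test. Sequences were searched with Python 3.11.15 and aligned with Biopython 1.88.

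The members and gene lists were chosen with earlier results of these data known. Named are all member probes, neighbours within 100 kb, up to 4 genes of a list with the largest differences, and the 3 genes most alike in pattern. Car6, Pip, Lpo, Bpifa2, Bhlha15, Agr2, Fcgbp, Krt19, Foxi1, Kit, Cd22 and Cd3e are named as well, to show other values of their lists. Alternatives were normexp (offset 50), quantile normalization, other centring, other filters, brightest probes only, other moderation, the methods' t-test, a replicate block and each array left out. No scaling and a crossed block were chosen after seeing the data. In simulated arrays of 31016 probes, limma recovered 0 of 200 probes changed by 1 log2 unit, 149 (74.5%) at 2 and 178 (89.0%) at 3, with 0, 10 and 10 false calls. The simulated spreads were drawn from limma's moderated variances and not from the measured ones, so these shares need not hold for these arrays.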

Additional observations from a re-analysis of the deposited data

How the results depend on the processing

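Of 101 values of the 6 probes under other settings, 98 kept their direction and their side of the threshold. Smgc passed the adjusted threshold with normexp background correction (log2 difference 1.497, adjusted p = 0.0231) and with trended and robust moderation (1.57, adjusted p = 0.0129), and Dcpp2 reversed with quantile normalization (-0.01775, adjusted p = 0.962), the cause of which was not tested. The Muc19 5′ probe has no value where the brightest probe alone stood for a gene. Without 1 array each in turn, the Smgc difference was 1.46 to 1.69 (adjusted p 0.332 to 0.954), and the arrays left alone in a genotype were assumed to vary like the others. Over all probes, limma called 0 by the settings of the report (4430 at an unadjusted p under 0.05), 124 with normexp, 496 with median centring, 373 with trended and robust moderation, 1 with the methods' t-test and 5 without scaling. Of the genes of the lists, 0 were called, against 6, 23 and 11 with normexp, median centring and trended and robust moderation. With median centring, limma took the spread as equal for all probes. Of the probes with an unadjusted p under 0.05, 58.6% were higher in the Myd88-/- glands, 46.0% with the percentile over detected probes, 24.6% with median centring, 50.5% with quantile normalization and 10.7% without scaling, which moved the median of all probes from 0.06 to -0.19. Labels share replicate numbers, but the deviations of equal numbers correlated at -0.384, so the numbers do not pair the arrays. With the replicate number as a block, the Smgc difference stayed 1.57 (standard error 0.175, adjusted p = 0.569) and 0 probes were called (2680 at an unadjusted p under 0.05), and with the numbers crossed 0 were called (5203).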
